A study of Mus musculus with 10 samples.

Results

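Adrenomedullin is a vasodilator peptide that endothelial cells secrete, and the genes described here encode the peptide and the proteins that receive it. They are the 6 genes Adm, Calcrl, Ramp1, Ramp2, Ramp3 and Ackr3, taken by gene symbol from a table of 16251 genes, and all 6 symbols were present. RNA was sequenced from 10 libraries of mouse primary LECs (lymphatic endothelial cells), which form the inner wall of lymphatic vessels. For 5 of them, labelled Vegfr2 siRNA, the cells had been transfected with 50 nM of small interfering RNA against Vegfr2, the VEGF receptor encoded by Kdr. The other 5 libraries were labelled control, and all were collected at 48 h. The labels give both groups the treatment tag of an siRNA knockdown. They do not name a control siRNA, an age, a sex or a strain, and nothing in them tells if each replicate was a culture of its own. Any p-value given here is thus set against the spread among these libraries, and that spread may be technical.

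Adrenomedullin signals through the calcitonin receptor-like receptor, the G protein-coupled receptor encoded by Calcrl. This receptor reaches the cell surface with a receptor activity-modifying protein (RAMP). With RAMP2 or RAMP3 it binds adrenomedullin, and with RAMP1 it binds calcitonin gene-related peptide (CGRP). It couples to the stimulatory G protein and raises cyclic AMP. Ackr3 encodes an atypical chemokine receptor that takes up the chemokine CXCL12 and, in mice, also scavenges adrenomedullin. Mouse embryos that lack Adm, Calcrl or Ramp2 develop edema with defects of the lymphatic vessels.

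The libraries held 17946483 to 18239260 expected counts. Kdr stood at 190.8, 196.3, 200.5, 173.4 and 166.6 CPM (counts per 1e+06 counts of the scaled library) in the Vegfr2 siRNA libraries, against 1328, 1320, 1280, 1259 and 1431 CPM in the control libraries. Its log2 fold change was -2.83 (SE 0.0595, edgeR adjusted p = 3.14e-11), and the groups were far apart, as their labels say. Of the 7 lymphatic markers Prox1 stood at 405.2 ± 12.2 CPM in Vegfr2 siRNA and 486.6 ± 17.1 CPM in control libraries (SD, n = 5 each). Mean levels in Vegfr2 siRNA and control libraries were 4337 and 5119 CPM for Lyve1 and 3270 and 5045 CPM for Mmrn1. They were 2202 and 3390 CPM for Reln and 1424 and 2967 CPM for Flt4. Ccl21a was low, at 0.8754 ± 0.356 CPM in Vegfr2 siRNA and 2.833 ± 0.54 CPM in control libraries. Its reads were divided between genes in all 10 libraries. Pdpn, also low, stood at 19.5 ± 1.79 CPM in Vegfr2 siRNA and 11.15 ± 1.53 CPM in control libraries. It was the 1 marker of this list that rose. The other 6 fell, and the summed level of the list was 11070 to 12020 CPM in Vegfr2 siRNA against 16370 to 17930 CPM in control libraries. All 5 pan-endothelial markers were tested, and 4 of them fell. Of the 5 blood endothelial markers 3 fell, with sums of 774.7 to 812.2 CPM in Vegfr2 siRNA and 1071 to 1097 CPM in control libraries. Over all 12161 tested genes, 35.2% fell and 36.1% rose at an adjusted p under 0.05. The 7 fibroblast and mural markers summed to 12.78 to 14.46 CPM in Vegfr2 siRNA and 11.3 to 16.32 CPM in control libraries, and their members moved in different directions. Acta2 rose (log2 fold change 0.62), Pdgfrb fell (-0.41), and Pdgfra, Col1a1, Dcn and Rgs5 were under the filter on low counts, Pdgfra with 45 counts in all in Vegfr2 siRNA and 5 in control libraries. Of the macrophage markers Cd68 fell to 33.98 ± 4.17 CPM in Vegfr2 siRNA, against 44.72 ± 3.26 CPM in control libraries, and Csf1r had at most 3 counts in any library. Of the epithelial markers Epcam had at most 2 counts and Cdh1 at most 1, while Krt18 rose to 8.22 ± 0.383 CPM in Vegfr2 siRNA, against 1.672 ± 0.469 CPM in control libraries. The macrophage markers Ptprc, Adgre1 and Lyz2 and the epithelial markers Krt5 and Krt14 had no values under these symbols. The part of these markers in the results below was not tested. In bulk RNA, fewer cells of a type and less RNA per cell cannot be told apart.

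The ligand and the scavenging receptor were higher after the siRNA, and the signalling receptor was lower. Adm, Ramp3 and Ackr3 rose, Calcrl fell, and Ramp2 fell by a small amount. Ramp1 was not detected at a level that could be tested. Of the 5 members tested, 3 rose, where 36.1% of the 12161 tested genes did, and 2 fell, where 35.2% did. Over both directions all 5 passed an adjusted p of 0.05 in edgeR's quasi-likelihood test, against 71.3% of all tested genes, so a call alone is common here. For 4 of the 5, the Vegfr2 siRNA and control libraries did not overlap, which held for 57.0% of tested genes. A rise of at least 2-fold was found for Adm and Ramp3, and for 1.93% of all tested genes. Ramp3 was at this cut, with a log2 fold change of 1.015. Under the other settings it ran from 0.98 to 1.042, so it did not reach 2-fold in all of them. Over the 5 tested members the median log2 fold change was 0.53, the value of Ackr3, and over all tested genes it was -0.002. The members moved in both directions and were chosen with earlier results of these data known. The difference in medians is thus no test of a joint rise.

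**Figure D1:**
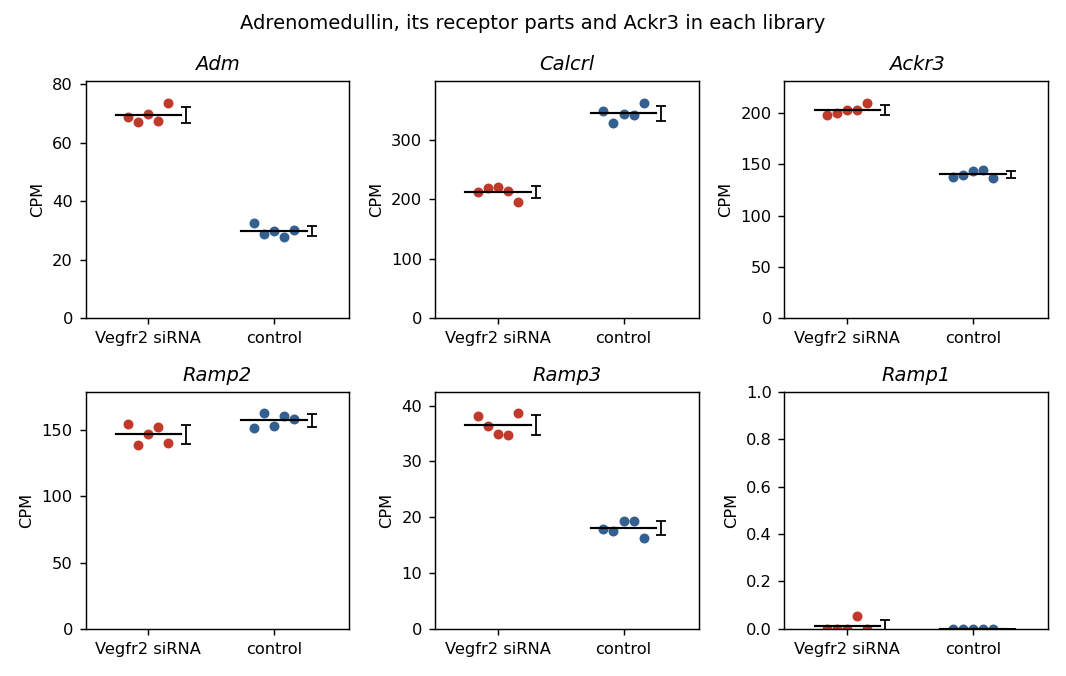
CPM of the 6 member genes in each library, with Vegfr2 siRNA (red, left) and control (blue, right) libraries in replicate order; the horizontal line is the mean and the bar at its right the SD (n = 5 each). Adm lies between 67.08 and 73.8 CPM in Vegfr2 siRNA and between 27.72 and 32.55 CPM in control libraries, Calcrl lies lower in every Vegfr2 siRNA library, and the groups overlap for Ramp2.

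Adm encodes the precursor that is cut to adrenomedullin (Entrez gene 11535, GRCm38.p6 chromosome 7, 110627657 to 110629820, forward strand). It stood at 68.94, 67.08, 69.98, 67.64 and 73.8 CPM in the Vegfr2 siRNA libraries, against 32.55, 28.86, 30.01, 27.72 and 30.34 CPM in the control libraries. Every Vegfr2 siRNA library was above every control library, and the groups were separated by more than their ranges. The log2 fold change was 1.22 (SE 0.0403, edgeR adjusted p = 6.34e-28), with an approximate 95% interval of 1.138 to 1.296, a 2.32-fold rise. Of all tested genes, 1.38% had a higher log2 fold change. No exon base of its coding transcripts is shared with another annotated gene.

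The genes whose profile over the 10 libraries lay nearest to that of Adm, among 10323 other genes of at least 5 CPM, were Gpc4, Plau and Ifrd1. The measure was the root mean square difference of log2 CPM after subtracting each gene's control mean. Gpc4, which encodes a glypican, differed from Adm by 0.0645 and stood at 62.3 CPM in Vegfr2 siRNA and 26.98 CPM in control libraries. Plau, the urokinase plasminogen activator gene, differed by 0.0674, with 2409 and 1047 CPM in the Vegfr2 siRNA and control libraries. Ifrd1 differed by 0.0707. With 2 groups, such likeness mostly says that the fold changes were close.

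Ackr3 (Entrez gene 12778, chromosome 1, 90203980 to 90215724, forward strand) encodes the receptor that binds CXCL12 and adrenomedullin and signals through arrestin and not through G proteins. It stood at 198.3, 200.5, 202.9, 203.2 and 210.2 CPM in Vegfr2 siRNA libraries, against 137.6, 139.8, 143.8, 144.3 and 136.6 CPM in control libraries. The groups did not overlap. Its log2 fold change was 0.53 (SE 0.0259, edgeR adjusted p = 4.96e-22), with an interval of 0.48 to 0.58, a 1.45-fold rise, and 7.09% of tested genes had a higher value.

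The promoters of Adm and Ackr3 are shown for their matches to the core of the hypoxia response element, since Adm is a known target of hypoxia-inducible factors. The letters searched were ACGTG and GCGTG on both strands, in the 250 bases before the gene start used in RefSeq's promoter table for GRCm38.p6. The table held 5 of the 6 members, all but Ramp2. Each line runs 5′ to 3′ in the direction of the gene, and capitals mark the matches, which read CACGC where the word lies on the opposite strand. The Adm stretch is chr7:110627407-110627656 and the Ackr3 stretch chr1:90203730-90203979, both on the forward strand.
Adm: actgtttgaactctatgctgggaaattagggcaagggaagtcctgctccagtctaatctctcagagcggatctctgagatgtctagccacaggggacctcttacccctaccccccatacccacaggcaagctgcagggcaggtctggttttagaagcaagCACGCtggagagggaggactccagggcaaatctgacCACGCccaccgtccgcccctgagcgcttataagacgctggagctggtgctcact
Ackr3: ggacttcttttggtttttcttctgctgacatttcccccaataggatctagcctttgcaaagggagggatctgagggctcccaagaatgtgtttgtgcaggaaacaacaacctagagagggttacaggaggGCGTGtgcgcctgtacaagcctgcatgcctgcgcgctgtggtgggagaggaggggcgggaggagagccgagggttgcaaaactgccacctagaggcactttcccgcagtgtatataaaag
The Adm stretch had 2 matches, whose first letters lie 90 and 54 bases before the start, and that of Ackr3 had 1, at 120 bases before it. The Ramp3 stretch also had 2 matches, and those of Calcrl and Ramp1 had 0. The Calcrl stretch, chr2:84425267-84425516 on the reverse strand, lies partly inside the gene span given for Calcrl below. That of Ramp3, chr11:6658283-6658532, runs past the gene start given for Ramp3 below. For these 2 genes the bases searched are thus not all upstream of the stated span. At least 1 match was held by 38.6% of the 32851 promoters that RefSeq lists, so the letters are common. The AP-1 word TGANTCA and the cyclic AMP response element TGACGTCA had 0 matches in the 5 stretches, and 6.7% and 1.5% of all promoters held them.

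Calcrl, the receptor gene (Entrez gene 54598, chromosome 2, 84330626 to 84425405, reverse strand), was the member with the largest fall. It stood at 212.9, 219.2, 220.9, 214.7 and 195.6 CPM in the Vegfr2 siRNA libraries, against 349.2, 328, 342.7, 341.3 and 362.6 CPM in the control libraries. The groups did not overlap. The log2 fold change was -0.70 (SE 0.0292, edgeR adjusted p = 5.06e-21), with an interval of -0.75 to -0.64, which left 0.617 of the control level. Of all tested genes, 6.32% had a lower log2 fold change. The most similar profiles by the same measure were those of Fundc2 (0.0233), Mgst1, a microsomal glutathione transferase gene (0.0389), and Lims1, an adaptor gene of integrin adhesions (0.0423).

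The RAMP genes moved apart from each other. Ramp3 (Entrez gene 56089, chromosome 11, 6658506 to 6677478, forward strand) encodes the RAMP that gives Calcrl its other adrenomedullin-binding form and that has also been described as a partner of ACKR3 in receptor recycling. It stood at 38.06, 36.37, 34.85, 34.83 and 38.63 CPM in Vegfr2 siRNA libraries, against 17.95, 17.62, 19.34, 19.27 and 16.21 CPM in control libraries. There was no overlap between the groups. The log2 fold change was 1.015 (SE 0.0499, edgeR adjusted p = 7.37e-22), with an interval of 0.917 to 1.113. The mean was 36.55 ± 1.77 CPM in Vegfr2 siRNA and 18.08 ± 1.3 CPM in control libraries (SD, n = 5 each). Of the exon bases of its coding transcript 8.2% also belong to the antisense gene Gm11978, and reads of these bases cannot be told apart because the strand setting is not known.

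Ramp2 (Entrez gene 54409, chromosome 11, 101246334 to 101248250, forward strand) encodes the RAMP whose loss in mice, like that of the ligand and of Calcrl, disturbs lymphatic vessels. It stood at 154.5, 138.9, 146.7, 152.4 and 140.2 CPM in Vegfr2 siRNA libraries, against 151.6, 162.5, 152.9, 160.5 and 157.9 CPM in control libraries. The groups overlapped: the highest Vegfr2 siRNA library was above the lowest pair of control libraries. The log2 fold change was -0.10 (SE 0.0292, edgeR adjusted p = 0.00233), with an interval of -0.16 to -0.04, and 37.8% of tested genes had a lower value. Under the other settings and with each library left out the value ran from -0.12 to -0.081 and the highest adjusted p was 0.0166. Ramp2 is the member that carries the 7-base word GTAAAGA in its longest annotated 3′ UTR, and the other 5 members do not. The word came from an earlier search of these same libraries for words tied to the fold changes. A lower median of its carriers was thus built into the choice and is no independent result. The 1424 tested genes with this word had a median log2 fold change of -0.149 and the 10381 without it 0.015. These sets were not matched for 3′ UTR length. The part of the word in the Ramp2 value was not tested.

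Ramp1 (Entrez gene 51801, chromosome 1, 91179822 to 91225196, forward strand) had 1 count in Vegfr2 siRNA replicate 4 and 0 counts in each of the other 9 libraries. At this depth a count of 0 allows a level of up to 3 counts, 0.164 to 0.168 CPM in a library, by counting error only. No fold change is given for it.

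**Figure D2:**
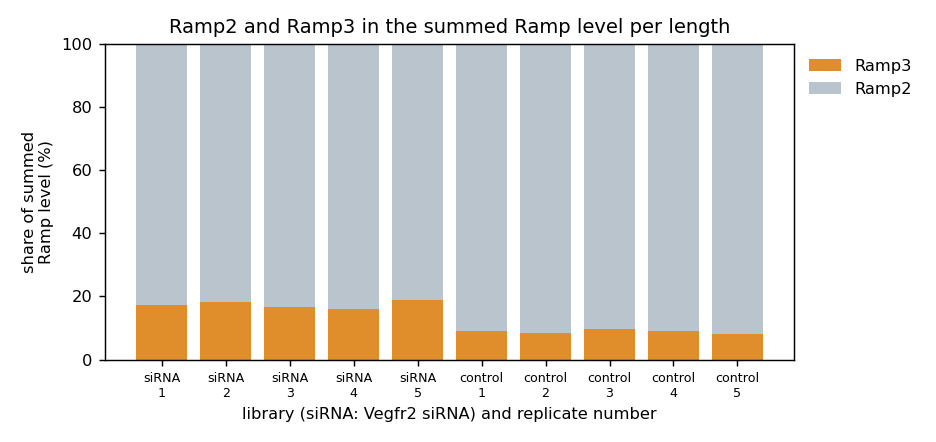
Share of Ramp2 (grey) and Ramp3 (orange) in the summed level of the RAMP genes per transcript length, in percent, in each Vegfr2 siRNA (left) and control (right) library. Ramp3 makes up 16.1% to 18.8% in Vegfr2 siRNA and 7.96% to 9.63% in control libraries; the share of Ramp1, at most 0.0368%, is too small to see.

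Divided by transcript length, Ramp2 was the main RAMP transcript in both groups. Ramp3 made up 17.2%, 18.1%, 16.7%, 16.1% and 18.8% of the summed RAMP level in the Vegfr2 siRNA libraries, against 9.07%, 8.37%, 9.63%, 9.18% and 7.96% in the control libraries. The mean share was 17.4% ± 1.08 in Vegfr2 siRNA and 8.84% ± 0.669 in control libraries (SD, n = 5 each), and the ranges were apart. The share depends on the length taken for each gene. All annotated Ramp2 exons cover 3301 bases in GENCODE, of which 1206 lie past the gene end given above, in a transcript that runs into Vps25, and 1103 are shared with Vps25. With the length of all annotated exons, the share of Ramp3 was 37.4% ± 1.75 in Vegfr2 siRNA and 21.6% ± 1.41 in control libraries.

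**Figure D3:**
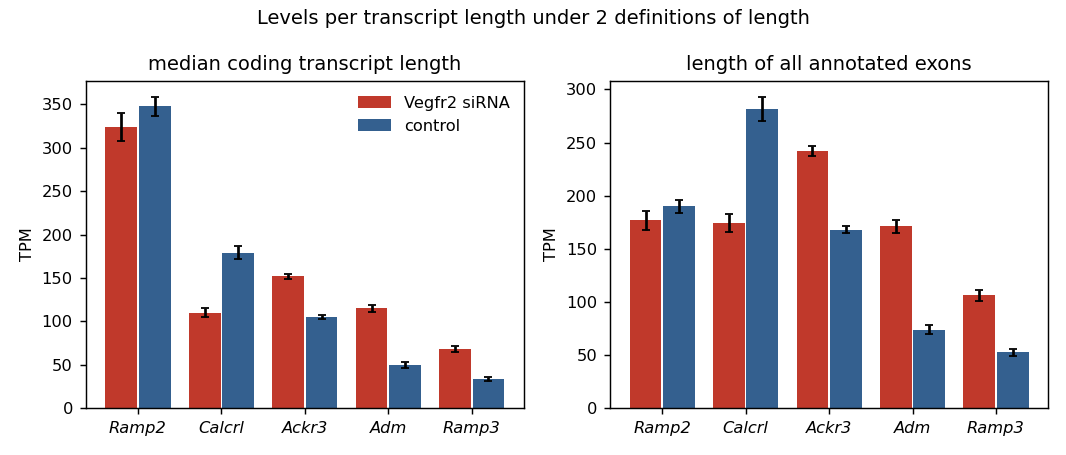
Levels of the 5 detected members in TPM (a level per transcript length), computed with the median length of a gene's coding transcripts (left panel) or the length of all its annotated exons (right panel); bars are means and whiskers the SD (n = 5) of Vegfr2 siRNA (red) and control (blue) libraries. In the left panel Ramp2 is the highest member in both groups, at 324 TPM in Vegfr2 siRNA and 348 TPM in control libraries, and in the right panel it is not.

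The order of the members' levels differed between the groups. Per length of the coding transcripts, Ramp2 was highest in Vegfr2 siRNA libraries (324 ± 16.3 TPM), followed by Ackr3 (152 ± 2.96), Adm (115 ± 3.85), Calcrl (110 ± 5.45) and Ramp3 (68 ± 3.22 TPM; SD, n = 5). Adm, at 111 to 121 TPM, and Calcrl, at 101 to 114 TPM, overlapped there and had no clear order. In control libraries the order was Ramp2 (348 ± 11.1 TPM), Calcrl (179 ± 7.19), Ackr3 (105 ± 2.09), Adm (49.5 ± 3.09) and Ramp3 (33.7 ± 2.23 TPM), with no overlap between neighbours. With the length of all annotated exons, Ackr3 was highest in Vegfr2 siRNA libraries (242 ± 4.86 TPM), where Ramp2, Calcrl and Adm overlapped at 177 ± 8.93, 174 ± 8.54 and 171 ± 5.82 TPM. On that scale Calcrl was highest in control libraries, at 282 ± 11.3 TPM. Calcrl was above Ackr3 in control libraries and below it in Vegfr2 siRNA libraries under both lengths.

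Ratios within a library do not depend on how libraries are scaled to each other, and 3 of them were tested. The log2 ratio of Adm to Calcrl counts was -1.626, -1.708, -1.658, -1.666 and -1.406 in the Vegfr2 siRNA libraries, against -3.422, -3.506, -3.512, -3.621 and -3.578 in the control libraries. Ligand transcript per receptor transcript was thus 3.77-fold higher in Vegfr2 siRNA libraries (log2 difference 1.92), and the groups were far apart. The log2 ratio of Ackr3 to Calcrl averaged -0.07 ± 0.0969 in Vegfr2 siRNA and -1.29 ± 0.0773 in control libraries (SD, n = 5 each), a difference of 1.23 or 2.34-fold. That of Ramp2 to Calcrl averaged -0.54 ± 0.0837 in Vegfr2 siRNA and -1.13 ± 0.0815 in control libraries, a difference of 0.60 or 1.51-fold, so Ramp2 and Calcrl changed by different amounts. Each ratio had p = 0.00794 in a two-sided exact permutation test that tried every way to assign 10 libraries to 2 groups of 5. This p was the same after Benjamini-Hochberg adjustment over the 3, and it is the smallest that 5 against 5 libraries allow. For the Adm and Ackr3 ratios this outcome was already set by the single genes, which moved opposite to Calcrl without overlap. Their p-values thus add nothing to the results of those genes, and all 3 ratios share Calcrl.

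**Figure D4:**
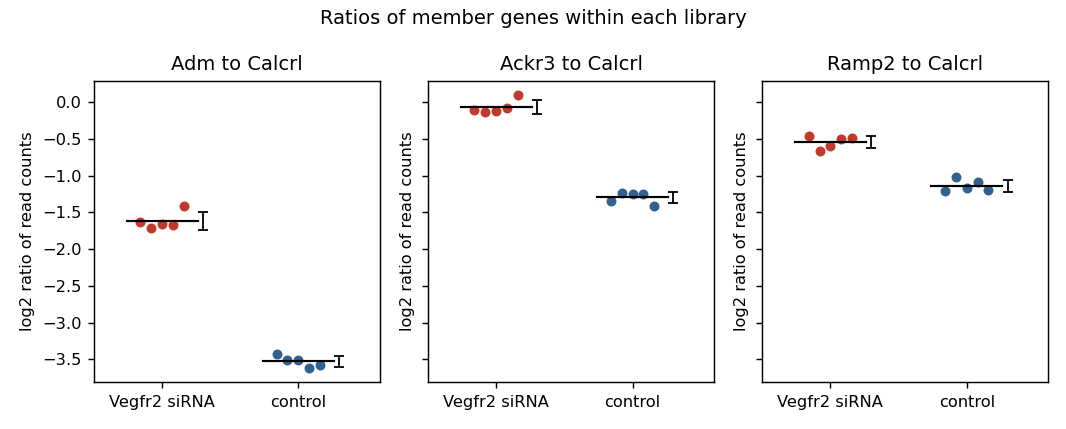
Log2 ratio of read counts, with a pseudocount of 0.5, of Adm, Ackr3 and Ramp2 to Calcrl in each Vegfr2 siRNA (red, left) and control (blue, right) library; lines are means and bars the SD (n = 5 each). The 2 groups do not overlap for any of the 3 ratios, and the gap is widest for Adm to Calcrl.

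The other ligands and receptors of the calcitonin family were low or moved in different directions. Of 7 genes, 6 had values and 3 passed the filter on low counts: Crcp rose, Gpr182 fell, and Calcb passed only through the Vegfr2 siRNA libraries, so it is given by its counts, with no test. Calcb, which encodes a form of CGRP, had 17, 17, 14, 11 and 32 counts in Vegfr2 siRNA libraries, against 1, 1, 1, 2 and 0 counts in control libraries. Its level was about that of the filter, at 0.9992 ± 0.447 CPM in Vegfr2 siRNA and 0.05551 ± 0.039 CPM in control libraries (SD, n = 5 each). The summed counts were 91 in Vegfr2 siRNA and 5 in control libraries, and Vegfr2 siRNA replicate 5 gave 32 of the 91. Gpr182, a receptor of lymphatic and sinusoidal endothelium once proposed to bind adrenomedullin, fell to 55.07 ± 5.36 CPM in Vegfr2 siRNA, against 97.67 ± 4.04 CPM in control libraries (log2 fold change -0.83). Crcp, which encodes a CGRP receptor component that is also a subunit of an RNA polymerase, rose by 0.50 on the log2 scale. Adm2, Calca and Calcr reached no more than 1, 2 and 1 counts per library.

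Genes listed for making or breaking down the peptide were mostly lower. Whether the product of each listed gene acts on adrenomedullin in these cells was not tested. Of 7 genes 5 were tested, of which 4 fell, 0 rose and 1 did not pass, where 35.2% of all tested genes fell. The median log2 fold change of the list was -0.285, beside -0.002 over all tested genes. Pam encodes the enzyme that amidates the end of adrenomedullin, a step the peptide needs for activity. Pam stood at 155.3, 166.3, 170.3, 156.2 and 158.4 CPM in Vegfr2 siRNA libraries, against 297.9, 301.3, 288.6, 298.2 and 283.6 CPM in control libraries. Its log2 fold change was -0.87 (SE 0.0269, edgeR adjusted p = 6.63e-29), and the groups were far apart. The carboxypeptidase gene Cpe fell by 0.29, the convertase gene Pcsk7, whose reads were divided between genes in all 10 libraries, by 0.28, and the endothelin-converting enzyme gene Ece1 by 0.16 on the log2 scale. Furin, another convertase gene, stood at 180.3 ± 7.61 CPM in Vegfr2 siRNA and 186.2 ± 4.77 CPM in control libraries (edgeR adjusted p = 0.132). Mme, which encodes the peptidase neprilysin, had at most 2 counts in a library.

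Among the chemokine partners of Ackr3 and other atypical chemokine receptors, 4 of 7 genes were tested, of which 1 rose, 2 fell and 1 did not pass. A rise was called for 36.1% of all tested genes and a fall for 35.2%. Cxcr4, the signalling receptor for CXCL12, rose to 31.6 ± 1.63 CPM in Vegfr2 siRNA, against 9.038 ± 1.26 CPM in control libraries (SD, n = 5 each; log2 fold change 1.80). The ligand gene Cxcl12 stood at 3.885 ± 0.423 CPM in Vegfr2 siRNA and 4.499 ± 0.302 CPM in control libraries (edgeR adjusted p = 0.0749). Ackr2, which encodes a scavenger of inflammatory chemokines, fell by 0.84 and Ccrl2 by 0.37 on the log2 scale. Ackr1 and Ackr4 had at most 1 and 2 counts in a library.

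Of 6 tested genes for arrestins and G protein-coupled receptor kinases, 2 rose and 4 fell (median log2 fold change -0.278). A call in either direction held for 71.3% of all tested genes, with 36.1% up and 35.2% down. The beta-arrestin gene Arrb1 fell to 229.5 ± 5.47 CPM in Vegfr2 siRNA, against 364.3 ± 4.8 CPM in control libraries (log2 fold change -0.67), and Arrb2 by 0.35. The kinase genes Grk2 (0.32) and Grk6 (0.29) rose, and Grk5 (-0.20) and Grk4 (-0.49), whose reads were divided between genes in all 10 libraries, fell.

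Genes of the stimulatory G protein and cyclic AMP route moved in both directions. Of 27 genes 22 were tested, of which 7 rose, 7 fell and 8 did not pass. By comparison, 36.1% of all tested genes rose and 35.2% fell. The median log2 fold change of the list was 0.007. The adenylyl cyclase genes Adcy4 (-0.79), Adcy9 (-0.67) and Adcy6 (-0.24) fell. The phosphodiesterase genes Pde4b (0.39) and Pde3b (0.25), whose products break down cyclic AMP, rose, as did Prkar2b (0.49), a regulatory subunit gene of protein kinase A. These are the members of the list with the smallest adjusted p-values, the largest of them 1.49e-09 for Adcy6 in edgeR's test. The calls of Adcy3, Pde4d and Prkar2a, named here after their values were seen, were each lost when single libraries were left out.

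Adrenomedullin is known to tighten junctions between LECs, and 4 junction genes were examined. The connexin gene Gja1 fell to 279.8 ± 10.4 CPM in Vegfr2 siRNA, against 396 ± 5.69 CPM in control libraries (SD, n = 5 each; log2 fold change -0.50), and Tjp1, which encodes a zonula occludens scaffold, fell by 0.28. The claudin gene Cldn5 rose by 0.28, and Cdh5, the VE-cadherin gene, had a log2 fold change of -0.04 (edgeR adjusted p = 0.0991).

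Of 7 genes of the oxygen-sensing route 1 rose, 3 fell and 3 did not pass, where 36.1% of all tested genes rose and 35.2% fell. Epas1, which encodes an alpha subunit of hypoxia-inducible factor, fell to 22.28 ± 2.61 CPM in Vegfr2 siRNA, against 54.13 ± 5.33 CPM in control libraries (SD, n = 5 each; log2 fold change -1.28). Hif1a, which encodes another alpha subunit, rose by 0.17 on the log2 scale. Arnt (-0.069) and the prolyl hydroxylase gene Egln3 (-0.065) fell by small amounts, and both calls were lost without control replicate 1, which left 1 gene of this list lower. That of Arnt was also lost without Vegfr2 siRNA replicate 2, and that of Egln3 without Vegfr2 siRNA replicates 3, 4 or 5 or control replicates 2, 3 or 4, each left out alone.

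**Figure D5:**
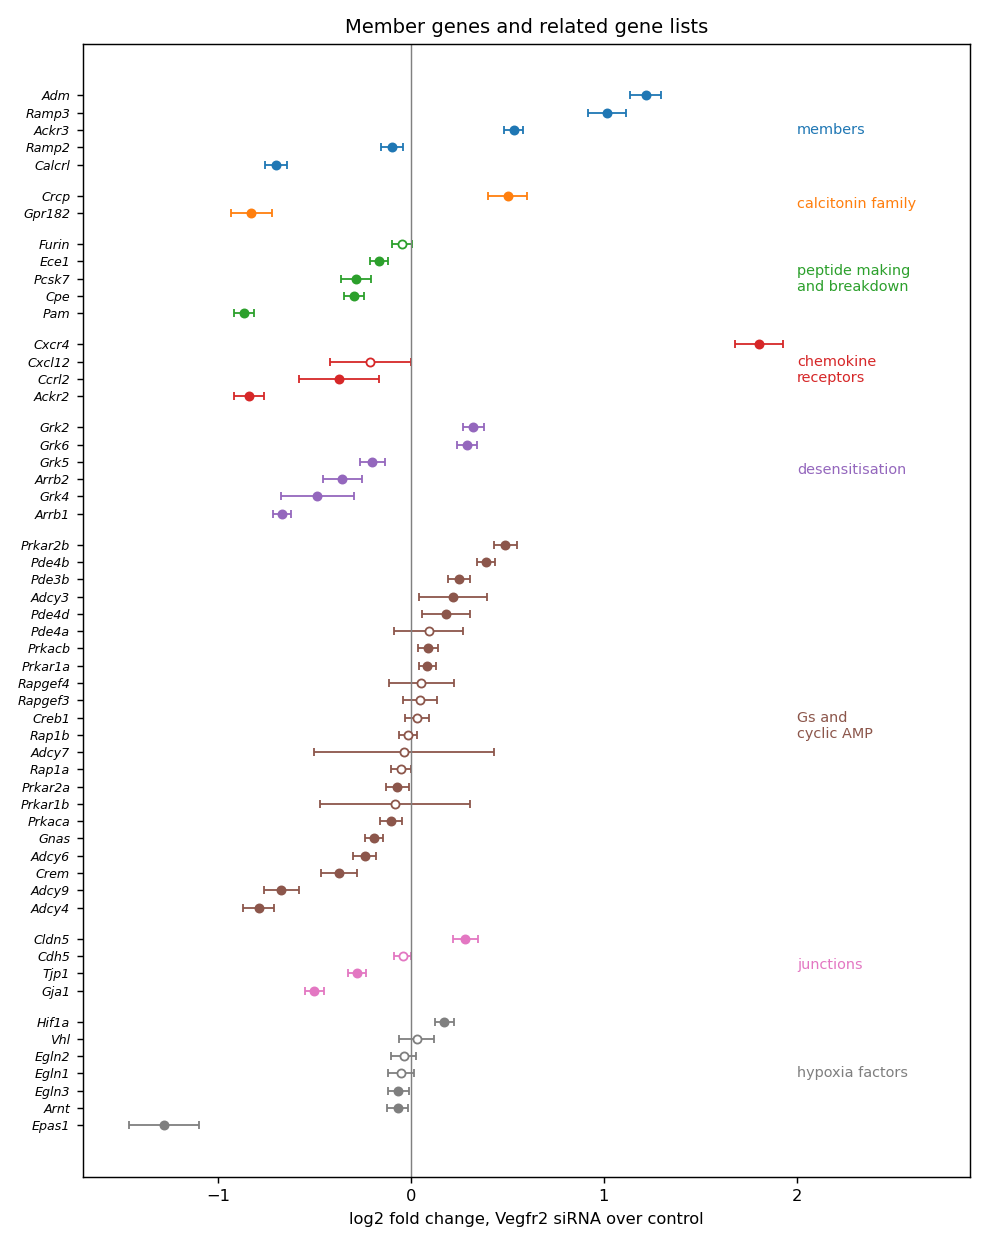
Log2 fold change of Vegfr2 siRNA over control for the 5 tested members and the tested genes of the related lists, other than Calcb, with bars of 1.96 standard errors to each side; filled points passed an adjusted p of 0.05 and open points did not. The members run from 1.22 for Adm to -0.70 for Calcrl, Cxcr4 at 1.80 is the highest gene shown and Epas1 at -1.28 the lowest.

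Of the 11 class B peptide receptor genes, relatives of Calcrl of which several can pair with RAMPs, 8 had values and all 8 were under the filter. Their summed level was 0.1651 to 0.2743 CPM in Vegfr2 siRNA and 0.1111 to 0.6712 CPM in control libraries. The other 3 genes of this list had no values under their symbols.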

How the data were processed

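RNA was measured in 5 Vegfr2 siRNA and 5 control libraries of mouse LECs. The deposited table gives the authors' estimated counts per gene and library (expected counts, not normalized). The submitters' processing notes list HISAT2 2.2.1, Bowtie2 2.4.5, RSEM 1.3.1 and build GRCm38.p6. What each tool did, the gene annotation and the strand setting: not given in the sources used here. Columns were matched to samples by title.

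Rounded counts entered a robust quasi-likelihood fit on group (edgeR 4.0.16, R 4.3.3), scaled by TMM, after filterByExpr at a minimum count of 10. P-values were adjusted by Benjamini-Hochberg over all 12161 tested genes and called at 0.05. The standard error is the unshrunken log2 fold change divided by the square root of F. CPM, counts per 1e+06, used TMM-scaled totals. Ratios used a pseudocount of 0.5 and an exact permutation test. TPM, scaled to the same sum, used GENCODE M21 lengths, matched for 15711 of 16251 genes. The fit was also run on simulated counts with few changed genes, which does not cover data where most tested genes are called. No 2 libraries of a group agreed within sampling noise (chi-square over degrees of freedom 1.50 to 3.47).

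The members and lists were chosen with earlier results of these data known. Named are the members, Kdr, genes of the related and marker lists (at most 6 from lists of over 8 genes, by adjusted p) and the 3 profiles nearest to Adm and to Calcrl. 1 gene of a related list is not reported here, and the counts of its list leave it out. Flagged genes outside that rule are named in the closing part. Alternatives were DESeq2 1.42.0, limma-voom (limma 3.58.1), RLE or upper-quartile scaling, no filter, a floor of 5 CPM on the mean, a block on replicate number, each library left out, pseudocounts of 1 and 5, and other lengths. The exon union length was chosen after seeing the data. Class B receptor genes and Ramp1 had too few counts to test.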

Additional observations from a re-analysis of the deposited data

Results flagged for a closer look

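In 124 groups of 5 libraries examined (genes, ratios and shares), 7 held a library whose gap to its nearest neighbour was most of the group's range; chance gives about 5% of such groups. Vegfr2 siRNA replicate 5 had the highest log2 ratio of Adm to Calcrl, -1.406 against -1.708 to -1.626 in the other 4 libraries of its group. The same library had the highest log2 ratio of Ackr3 to Calcrl, 0.1041 against -0.1286 to -0.07955. Both ratios share Calcrl, so these flags are not independent. Calcrl stood at 195.6 CPM in Vegfr2 siRNA replicate 5, against 212.9 to 220.9 CPM in the others of its group. The library was also high for Calcb, at 1.761 CPM against 0.6034 to 0.9325 CPM. This library had the lowest Kdr value of its group, 166.6 CPM, but 5 libraries are too few for a correlation, and none was computed. Control replicate 5 stood apart for Ackr2 (61.24 CPM against 55.99 to 57.38), Prkar2b (80.81 CPM against 86.79 to 88.68) and Egln3 (137 CPM against 143.5 to 146). For Adcy7, Vegfr2 siRNA replicate 2 had 2.139 CPM against 0.7704 to 1.098 CPM in the others of its group.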

How the results depend on the processing

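The calls of Adm, Calcrl, Ramp2, Ramp3, Ackr3 and Kdr kept their direction and stayed past the threshold under all 17 alternatives of the edgeR fit, each left-out library included. The log2 fold change ran from 1.193 to 1.251 for Adm, -0.713 to -0.668 for Calcrl, 0.98 to 1.042 for Ramp3 and 0.516 to 0.545 for Ackr3. The number of all genes called ran from 7753 at a mean of 5 CPM to 8956 with no filter. With the replicate number as a block it was 8537, against 8668 without. Same-numbered libraries did not deviate together (correlations of -0.075 to 0.02), so the numbers are not taken as pairs; 0 of 5 Vegfr2 siRNA libraries correlated best with its own number. A sign-flip test of same-numbered differences (replicate block) gave log2 differences of 1.915 for Adm, 1.229 for Ackr3 and 0.596 for Ramp2 to Calcrl, each with exact p = 0.0625, the smallest that 5 pairs allow. With a library left out these differences ran from 1.863 to 1.941, 1.187 to 1.246 and 0.578 to 0.627. The difference in RAMP share between Vegfr2 siRNA and control, in percentage points, was 8.54 for Ramp3 and -8.55 for Ramp2 per coding length. It was 9.66 and -9.66 without division by length and 15.8 and -15.8 per exon union length, as the lengths used differ. Without a filter on low counts, Arnt and Egln3 lost their calls (adjusted p = 0.0512 and 0.0668). Cdh5 was called lower with upper-quartile factors (adjusted p = 0.0189), with DESeq2 and at a mean of 5 CPM, Furin with upper-quartile factors (adjusted p = 0.0445), and Cxcl12 without Vegfr2 siRNA replicate 2 (adjusted p = 0.0297). Depth limits the statements on Ramp1 and Calcb.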
